A study of Mus musculus with 32 samples.

Results

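SRSF4 was depleted from P19 cells, a mouse embryonal carcinoma line, and poly(A)+ RNA was sequenced from whole cell lysates and from cytoplasmic fractions. The knockdown cells had received a custom-made pool of small interfering RNAs (esiRNA) against *Srsf4*, and the control cells an esiRNA against GFP, both with Lipofectamine 2000 for 36 h. Each target was represented by 1 esiRNA pool, so no independent second reagent stands behind the SRSF4 knockdown. Replicates A and B of either group were available in either fraction, which gives 8 of the 32 libraries of the series. The other 24 libraries came from cells depleted of SRSF1, SRSF2, SRSF3, SRSF5, SRSF6 or SRSF7, and all 7 knockdowns were compared with the same 4 GFP libraries. The study's methods call the replicates biological, while the labels give only the letters, and the p-values measure the spread between these libraries.

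SR proteins bind RNA through 1 or more RNA recognition motifs and contact other splicing factors through a region rich in arginine and serine. They help to define exons during splicing, and several of them accompany the spliced mRNA to the export receptor NXF1. SRSF4, also called SRp75, is the longest of the classical members. Many SR genes carry a so-called poison exon, whose inclusion introduces a premature stop codon and directs the transcript to nonsense-mediated decay.

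The gene tables held estimated reads per gene, scaled between libraries by the authors, and summed to 29936975 to 32067160 in the 4 whole cell libraries and to 32931560 to 38371995 in the 4 cytoplasmic ones. The cells carried the marker expected of the line: *Pou5f1*, which encodes the pluripotency factor OCT4, stood at 34046 and 27927 in the whole cell SRSF4 libraries A and B and at 31337 and 30153 in the GFP libraries. Replicates of the same letter resembled each other across groups in both fractions. In the cytoplasm the 2 secretoglobin genes summed to 1173 in SRSF4 A and 987 in GFP A but to 0 in both B libraries, and the 8 exocrine pancreas genes summed to 556 and 504 in the A libraries against 35.8 and 48.8 in the B libraries. The 7 epithelial and smooth muscle cytoskeleton genes summed to 26929 and 29340 in the cytoplasmic B libraries against 9456 and 9862 in the A libraries. These differences ran between the letters and not between the knockdown and the control, and their part in the results below was not tested.

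*Srsf4* itself was lower in both SRSF4-depleted fractions. This gene (ENSMUSG00000028911) lies at chr4:131873617-131901706 on the plus strand of mm10. In whole cells it measured 470.9 in SRSF4 A and 465.5 in SRSF4 B against 902.8 in GFP A and 740.6 in GFP B. In the cytoplasm it measured 405.4 and 325.3 against 1007.3 and 926.2. The groups did not overlap in either fraction. The whole cell mean was 468 ± 3.79 (SD, n = 2) after knockdown and 822 ± 115 (SD, n = 2) in the control, so that 57% of the control level was left. The cytoplasmic mean was 365 ± 56.7 (SD, n = 2) against 967 ± 57.3 (SD, n = 2), with 37.8% left. In the 14 libraries of the GFP control and the other 6 knockdowns *Srsf4* ranged from 724.3 to 1244.8 in whole cells and from 680.6 to 1450 in the cytoplasm, so the 4 SRSF4 libraries were the lowest in their fractions. In a limma fit over all genes without the replicate letter the log2 change was -0.80 (SE 0.21) in whole cells and -1.42 (SE 0.26) in the cytoplasm, with Benjamini-Hochberg adjusted p = 1.00 and 0.917. With the letter as a block the limma adjusted p was 0.0274 and 0.00131, so that *Srsf4* fell in both fractions by this fit. With the block the call was lost in whole cells without SRSF4 A (limma adjusted p = 1.00), GFP A (0.547) or GFP B (0.218) and in the cytoplasm without SRSF4 A (0.0611). The difference between the fractions did not pass the test, with a log2 change of the cytoplasmic relative to the whole cell level of -0.62 (SE 0.35) and limma adjusted p = 1. Fewer cells with the transcript and less of it per cell cannot be told apart in such bulk samples.

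**Figure D1:**
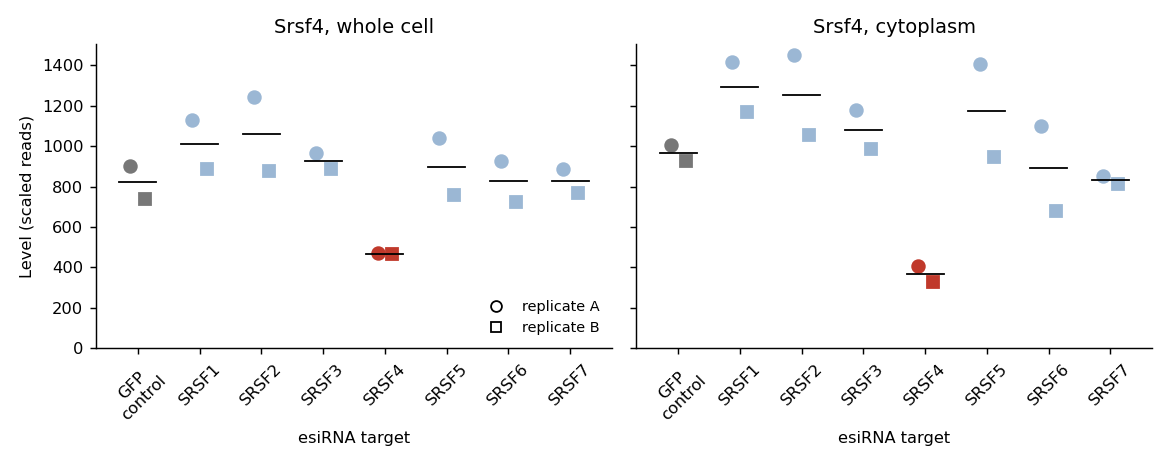
*Srsf4* level (authors' scaled estimated reads, vertical axis from 0) in every library of the whole cell and cytoplasmic fractions, by targeted gene on the horizontal axis, with circles for replicate A, squares for replicate B and a black line at the group mean. The SRSF4 libraries, in red, lie between 325.3 and 470.9, below the control libraries in grey (740.6 to 1007.3) and below all other knockdowns in light blue.

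The one other gene called with the letter as a block was *Gm12992* (ENSMUSG00000085667), a processed transcript annotated on the opposite strand at chr4:131899478-131920029 (mm10), across the end of *Srsf4*. It measured 992.4 and 955.1 in the whole cell SRSF4 libraries against 1834.2 and 1759.9 in the GFP libraries, a log2 change of -0.88 with limma adjusted p = 0.0274 in the blocked fit. In the cytoplasm it measured 1056.0 and 822.8 against 2556.4 and 2255.7, a log2 change of -1.38 with limma adjusted p = 0.00131 in the blocked fit. Its exon bin of 3312 bases, which overlaps the end of *Srsf4* and runs on past it, held 62.7 and 54.5 normalised reads in whole cells after knockdown against 91.5 and 109 in the control. The neighbouring bin, outside *Srsf4*, held 29.1 and 33.9 against 29.1 and 38.0, and the groups overlapped there. Both bins were counted for *Gm12992* pooled with *Gm12978*, and the neighbouring bin also lies in a pseudogene transcript. The last bin of *Srsf4*, which lies within these 3312 bases, held 1732 and 1728 in the whole cell control. The bin counts thus gave different reads to *Srsf4* and *Gm12992*. The gene-level control values of *Gm12992*, 1834.2 and 1759.9, lay far above its bins. The sources used here do not give the strand setting of the counting. In the gene-level values the reads of *Gm12992* and *Srsf4* over the overlap cannot be told apart.

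Within *Srsf4* the loss ran along the gene. The exon tables cut the gene into 16 bins, and in either fraction 13 of them were lower in both knockdown libraries than in both controls, none was higher, and 3 overlapped. The last bin, 1442 bases at chr4:131900265-131901706 (mm10) that hold the end of the transcript, gave 893 and 894 normalised reads in whole cells after knockdown against 1732 and 1728. It gave 944 and 757 against 2337 and 2129 in the cytoplasm. The fourth bin gave 60.9 and 61.7 against 112 and 114 in whole cells, and 26.2 and 24.5 against 87.7 and 87.1 in the cytoplasm.

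The 3 overlapping bins in whole cells were neighbours near the middle of the gene. The fifth bin (chr4:131885208-131885308, 101 bases, in 1 of 4 annotated transcripts) held 28.2 and 30.9 normalised reads against 34.4 and 25.3. The seventh (chr4:131885493-131886106, 614 bases, in 1 of 4 transcripts) held 42.7 and 33.9 against 35.5 and 23.4, and the eighth, 24 bases long, 12.7 and 7.20 against 6.46 and 9.75. These stretches overlapped the control in level while the exons around them were lower. Relative to the other bins of the gene the seventh was higher by 1.22 on the log2 scale in limma's diffSplice test, with an unadjusted p of 7.94e-05 and an adjusted p of 1 over all bins. In the cytoplasm the 3 bins were close to empty in both groups. The fifth held 1.19 and 0 reads after knockdown and 2.11 and 0 in the control, and the seventh 0 and 1.69 against 1.06 and 0.

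**Figure D2:**
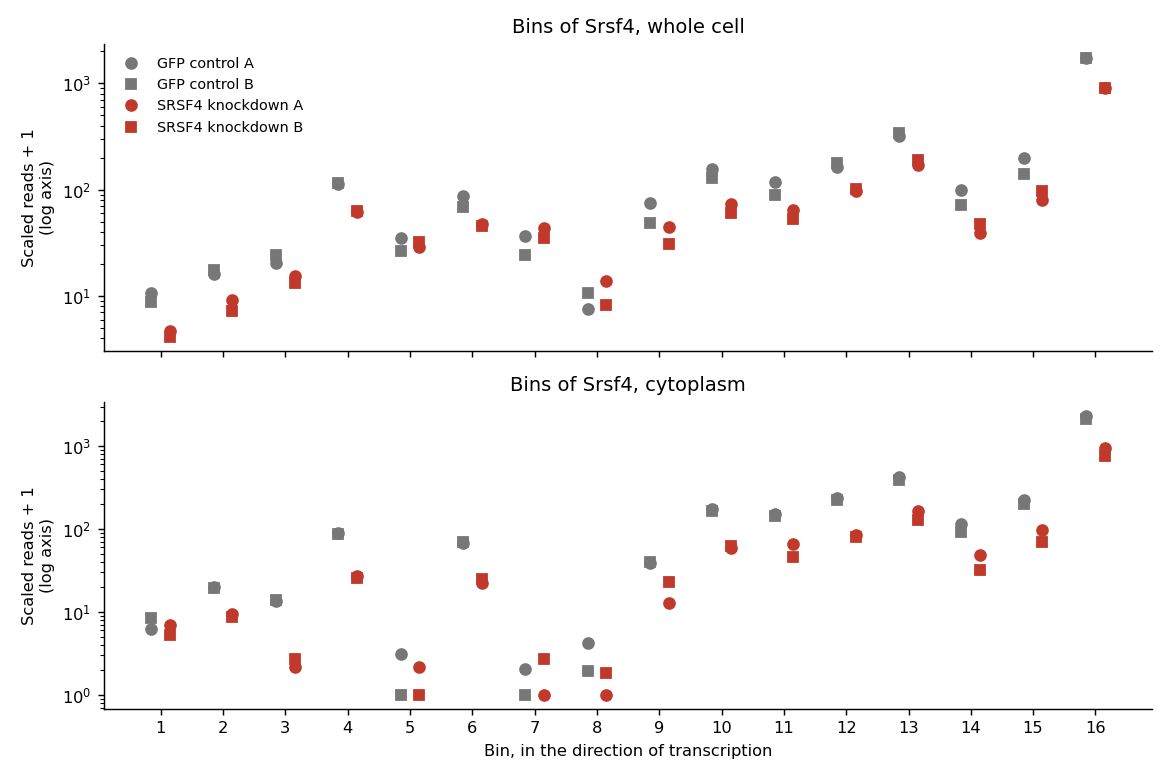
Normalised reads in the 16 exon bins of *Srsf4* in transcription order (horizontal axis) on a log axis, in whole cells and cytoplasm, with red for SRSF4 and grey for GFP libraries. In both fractions 13 bins lie lower in red than in grey without overlap, and the fifth, seventh and eighth bins overlap in whole cells.

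None of the other 12 SR family genes was called in either fraction. On the authors' pooled FPKM scale, which takes transcript length into account, *Srsf4* was one of the scarcer members, with 24.9 FPKM in the whole cell control and 27.4 in the cytoplasmic control, against 333 for *Srsf1* at the top of the family in whole cells. Several relatives were higher after knockdown mainly in the A pair. *Srsf2* measured 10424 in cytoplasmic SRSF4 A against 5036 in GFP A but 3517 in SRSF4 B against 3729 in GFP B. *Srsf6* measured 10573 against 5584 in the A libraries and 3821 against 3740.1 in the B libraries. *Srsf7* measured 5938 against 3572 in the A libraries and 2853 against 3637 in the B libraries, in opposite directions. *Srsf2* in whole cells also differed mainly in the A pair, with 12718 against 7890.5 for the A letter and 7235 against 7179 for the B letter.

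Some relatives were lower in both letters without passing the test. *Tra2b*, an SR-like activator of exon inclusion, measured 2337 and 1538 in the cytoplasm after knockdown against 2554 and 2493, and *Tra2a* 1122 and 842 against 1287 and 1296. *Srsf10* measured 1035 and 627 against 1218 and 889, so the groups overlapped. *Srsf3*, a main export adaptor of the family, was higher in the A pair and lower in the B pair, at 7784 and 5264 against 7172 and 6254. The estimates of the 13 members had a median log2 change of 0.07 in whole cells and -0.08 in the cytoplasm, against -0.0027 and -0.02 over all tested genes. In the cytoplasm the median was 0.12 for the A pair and -0.31 for the B pair.

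**Figure D3:**
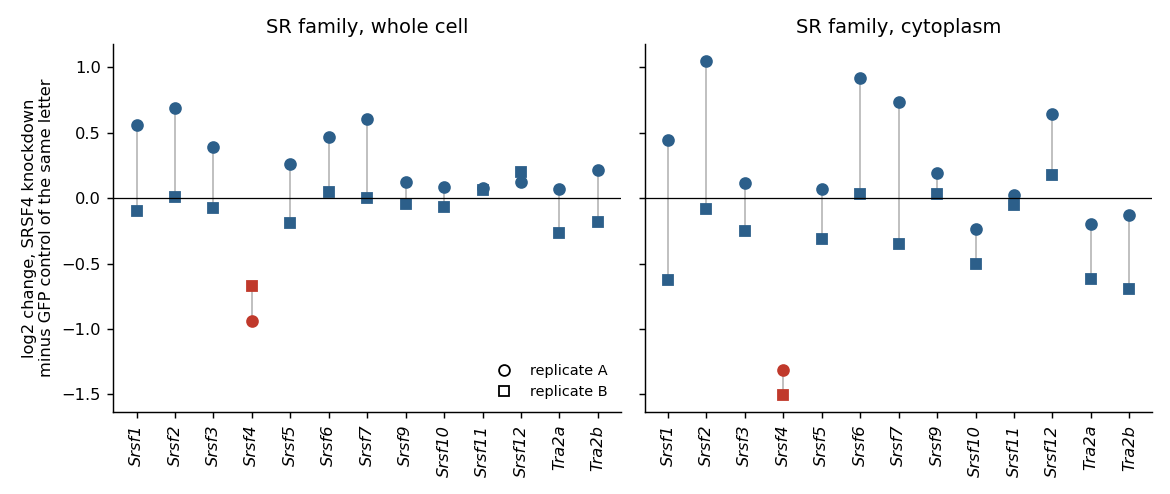
Log2 change between the SRSF4 and the GFP library of the same letter for the 13 SR family genes, with whole cell and cytoplasm in separate panels, circles for the A pair and squares for the B pair. *Srsf4* is low in both letters of both fractions (-0.94 and -0.67, -1.31 and -1.51), while *Srsf2*, *Srsf6* and *Srsf7* lie apart by letter in the cytoplasm.

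Across the transcriptome few genes separated the knockdown from the control by much. Without the letter, limma called 0 of 18540 genes in whole cells and 0 of 17566 in the cytoplasm (0% each), with 178 higher and 189 lower at an unadjusted p under 0.05 in whole cells (0.96% and 1.02%, together 1.98%) and 437 and 396 in the cytoplasm (2.49% and 2.25%, together 4.74%). In the cytoplasm edgeR on reads summed over exon bins also called 0, with 462 higher and 296 lower at an unadjusted p under 0.05, and DESeq2 called 4. With the letter as a block limma called 2 genes in whole cells (0.0108%) and 2 in the cytoplasm (0.0114%), in both cases *Srsf4* and *Gm12992*. A blocked limma fit to the 4 compared libraries alone, added after seeing the data, called 101 genes in whole cells (0.58%) and 527 in the cytoplasm (3.21%, 148 higher and 379 lower). That fit leaves 1 residual degree of freedom per gene, and it called *T* higher in whole cells although the values were 2227 and 2844 against 902 and 2970.1. Of the genes with a mean of at least 100 scaled reads, 0 of 12654 differed by at least 2-fold in both letters in whole cells, and 3 of 11740 (0.0256%) did in the cytoplasm. These were *Srsf4*, *Gm12992* and *Gm22133*, the last of which measured 909 and 725 against 114 and 163. The A pair spread more than the B pair, with an SD of the log2 change over genes of 0.429 against 0.257 in the cytoplasm and 0.288 against 0.166 in whole cells.

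The genes with the smallest p in the cytoplasm did not pass the test but had groups that lay apart. *Pcsk1n*, which encodes the secretory pathway protein proSAAS, measured 397 and 292 against 145 and 151, a log2 change of 1.18 (SE 0.23), and it also lay higher in whole cells, at 145 and 101 against 71.7 and 72.0. *Calr*, the lectin chaperone calreticulin of the endoplasmic reticulum, measured 28847 and 22958 against 17935 and 15231. It also belongs to a list described below. *Syvn1*, a ubiquitin ligase of endoplasmic reticulum-associated degradation, measured 1516 and 1287 against 874 and 866, and *Nudcd3* 7527 and 6825 against 4862 and 4831. The limma adjusted p of these named genes was 0.917 without and 0.209 with the block.

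On the lower side in the cytoplasm, *Wdfy1* measured 685 and 837 against 1267 and 1155, a log2 change of -0.69 (SE 0.16), and its whole cell values, 1366 and 1551 against 1958 and 1854, also lay apart. *Cald1*, which encodes the actin-binding protein caldesmon, measured 279.6 and 390.0 against 654 and 615 in the cytoplasm, whereas in whole cells it measured 4439 and 5374 against 4486 and 5737. *Vav3*, an exchange factor for small GTPases, measured 66.2 and 76.2 against 132 and 121 in the cytoplasm and 348 and 438 against 408 and 451 in whole cells. *Grb14*, an adaptor of the insulin receptor, measured 143 and 172 against 279 and 237, and *Mpp5* 188 and 217 against 356 and 347. All 5 had a limma adjusted p of 0.917 without and 0.209 with the block.

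In whole cells the genes with the smallest p were of modest size. *Clcn5*, a chloride/proton exchanger of endosomes, measured 4082 and 3196 against 2757 and 2469 there, and 523 and 703 against 588 and 584 in the cytoplasm. *Ubap2* measured 10692 and 9288 against 8504 and 7385. *Snhg12*, a host of small nucleolar RNAs, measured 947 and 1101 against 1577 and 1799, a log2 change of -0.72 (SE 0.19). The limma adjusted p was 1.00 without and 0.457 with the block for each of them.

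Genes of endoplasmic reticulum protein folding lay mostly higher in the cytoplasm after SRSF4 knockdown, none past the adjusted threshold in a fit over all libraries of the fraction. Of the 15 listed chaperones and related genes, 4 were higher and 0 lower at an unadjusted p under 0.05, against 2.49% and 2.25% of all genes. The groups lay apart upward for 9 and downward for 1, against 20.1% and 20.4% of all genes. *Hyou1*, an HSP70-like chaperone, measured 10198 and 9269.8 in the cytoplasm against 6832 and 6617. *Xbp1*, a transcription factor of the unfolded protein response, measured 3451 and 2179 against 1754 and 1749, and *Manf*, a secreted factor of the same response, 8413 and 6452 against 5624 and 5144. The list did not move as one: *Canx*, which encodes calnexin, measured 4299 and 4247 against 5359.9 and 4915, and *Hsp90b1* 3857 and 2695 against 4622 and 3058. The median log2 change of the list was 0.24 in the cytoplasm, and in the other 6 knockdowns, against the same controls, it ran from 0.04 to 0.34. In whole cells 14 of the 15 estimates were higher, 12 of them in both letters, and the shares of all genes doing so were not counted. The groups lay apart upward for 3 and downward for 0, against 11.3% and 12.4% of all genes. The median was 0.34 against 0.04 to 0.415 in the other knockdowns, and 0 genes had an unadjusted p under 0.05 in limma. *Hspa5*, the main HSP70 of the compartment, measured 21882 and 7497 against 9535 and 6302 in whole cells, with the A libraries far above the B libraries in both groups. In the blocked fit to the 4 compared libraries limma called 4 of the 15 higher in the cytoplasm and 0 lower. These were *Hspa5*, *Calr*, *Xbp1* and *Hyou1* (limma adjusted p from 0.0190 to 0.0462). In whole cells it called 3 higher (*Hspa5*, *Pdia3* and *Xbp1*) and 0 lower. Over all tested genes this fit called 148 of 16414 higher in the cytoplasm and 55 of 17422 in whole cells.

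Cholesterol synthesis genes had a similar median. Of 26 genes, 4 were higher and 0 lower in the cytoplasm at an unadjusted p under 0.05 (2.49% and 2.25% of all genes), 17 lay apart upward and 1 downward (20.1% and 20.4%), and the median log2 change was 0.26. *Dhcr7*, a sterol reductase, measured 7234 and 8046 against 5488 and 5353 in the cytoplasm, and *Srebf1*, a transcription factor of lipid synthesis, 5298 and 5547 against 4097 and 4061. In these genes the letters gave like values. *Idi1*, an isoprenoid isomerase of the same pathway, measured 1036 and 821 against 1254 and 1000.1. In whole cells 1 gene, *Srebf2*, was higher at an unadjusted limma p under 0.05, against 0.96% of all genes. It measured 10858 and 11266 against 9794 and 8972, and the median of the list was 0.23. In the other 6 knockdowns the cytoplasmic median of the list ran from -0.07 to 0.27, and no gene of it was called after SRSF4 knockdown over all 16 libraries. In the blocked fit to the 4 compared libraries limma called 2 of the 26 higher in the cytoplasm and 3 in whole cells, and 0 lower. The same fit called 148 of all 16414 tested genes higher in the cytoplasm and 55 of 17422 in whole cells.

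Host genes of small nucleolar RNAs, whose own spliced RNAs are mostly noncoding and turned over by translation-dependent decay, lay lower in the cytoplasm. Of 10 tested genes, 5 lay apart downward, against 20.4% of all genes. At an unadjusted limma p under 0.05, 3 were lower, against 2.25% of all genes. In both letters 9 were lower, and the share of all genes doing so was not counted. *Snhg5* measured 494 and 647 against 1046 and 1182, a log2 change of -0.99 (SE 0.30). *Snhg1* measured 651 and 1260.0 against 1369.6 and 1804, and *Gas5* 232 and 553 against 772 and 605. *Snhg12* measured 705 and 1613 against 2403 and 3025 in the cytoplasm. The summed level of the list also differed by letter within each group, at 3860 and 7744 after knockdown and 9334 and 12825 in the control, and the part of that spread in the result was not tested. The median log2 change was -0.77 in the cytoplasm and -0.12 in whole cells, and in the other 6 knockdowns it ran from -0.63 to 0.05 in the cytoplasm. Over all 16 libraries none of these genes was called. The blocked limma fit to the 4 compared libraries called 6 of the 10 lower (*Gas5*, *Snhg1*, *Snhg5*, *Snhg7*, *Snhg12* and *Zfas1*). Over all tested genes that fit called 379 of 16414 lower in the cytoplasm.

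Lists of RNA-processing genes other than the SR family had small median differences. Among 34 core spliceosome genes *Sf3b5*, a subunit of the U2 particle, was the one at an unadjusted p under 0.05 in the cytoplasm, with 3871 and 3184 against 2469 and 2805, and the median log2 change was 0.14. The groups lay apart upward for 14 of these 34 genes and downward for 5, against 20.1% and 20.4% of all genes. The 23 hnRNP genes had a cytoplasmic median of -0.20, with 4 apart downward, a share near that of all genes, and 0 at an unadjusted p under 0.05. Of the 22 tested genes for NXF1 and the TREX export complex, 0 had an unadjusted p under 0.05, and their median was 0.01. Among 20 cleavage and polyadenylation factors *Cstf1*, a subunit of the cleavage stimulation factor, measured 4535 and 3558 against 3012 and 3278. Among 8 SR protein kinases and related genes *Srpk2*, which phosphorylates the arginine- and serine-rich region, measured 498 and 629.5 against 967 and 732. The 10 nonsense-mediated decay factors had 0 genes at an unadjusted p under 0.05 in either fraction. None of these genes passed the adjusted threshold over all 16 libraries. In the blocked limma fit to the 4 compared libraries *Srpk2* was lower in the cytoplasm (log2 change -0.60, adjusted p = 0.0477). The export factors *Nxt2* (-0.95, 0.0148) and *Fyttd1* (-0.68, 0.0268) and the splicing regulator *Qk* (-0.64, 0.0241) were lower there too. This fit called 379 of 16414 tested genes lower in the cytoplasm, and 0 spliceosome, hnRNP, cleavage or decay genes.

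The cytoplasmic level relative to the whole cell level, tested as an interaction over 19211 genes, gave 0 calls in limma (0%), with 109 higher and 130 lower at an unadjusted p under 0.05 (0.567% and 0.677%, together 1.24%). On reads summed over exon bins edgeR gave 0 calls (78 and 152) and DESeq2 gave 0 calls (78 and 111), and limma with the letter as a block gave 0 calls (284 and 1061, together 7%). The caldesmon gene *Cald1* had the log2 estimate -0.90 and *Vav3* -0.70, both lower in the cytoplasm than in whole cells, with limma adjusted p = 1. The median of the small nucleolar RNA host genes was -0.61.

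Exon usage differed in few places. A bin was tested for its change relative to the other bins of its gene with limma's diffSplice. In whole cells 0 of 180001 bins were called at an adjusted p of 0.1 (0%), with 1739 higher and 1157 lower at an unadjusted p under 0.05 (0.966% and 0.643%, together 1.61%), and edgeR also called 0. In the cytoplasm 3 of 144813 bins were called, all higher (0.00207%), in *Bag6*, *Mars* and *Chpt1*, and 1428 were higher and 1374 lower at an unadjusted p under 0.05 (0.986% and 0.949%, together 1.93%). With the letter as a block 22 bins were called in the cytoplasm (0.0152%), of which 10 were higher (0.00691%) and 12 lower (0.00829%).

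*Bag6*, which encodes a chaperone that shields newly made membrane proteins and directs them to insertion or degradation, had a called bin whose groups lay well apart in both fractions. The bin is the last 18 bases of an exon at chr17:35140472-35140489 on the plus strand of mm10, and 6 of 17 annotated transcripts contain it. It held 160.5 and 154.5 normalised reads in the cytoplasm after knockdown against 25.4 and 37.6. In whole cells it held 73.6 and 64.8 against 30.1 and 29.2. All 4 knockdown libraries lay above all 4 control libraries. Relative to the rest of the gene the log2 change was 1.86 in the cytoplasm with limma adjusted p = 0.0273, and 1.01 in whole cells with adjusted p = 1. With the letter as a block the limma adjusted p in the cytoplasm was 0.0471, and edgeR gave 0.000472. The call was lost without SRSF4 A (limma adjusted p = 0.564), GFP A (1) or GFP B (0.808).

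The 18 bases lie at chr17:35277417-35277434 on the plus strand of NCBIM37, the build of the genome at hand. They are shown because they are the part of the transcript whose use was higher, with the 6 exon bases before them and the 6 intron bases after them, and capitals mark the GT at the start of the intron.
Bag6 exon end: cgcgccagagacaaatgcacccaaGTgagt

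Adjacent parts of *Bag6* also lay higher, by a smaller factor. The 99 bases before it held 358 and 311 normalised reads in the cytoplasm against 106 and 170.5, and the next exon held 441 and 414 against 206 and 254. The first part of the same exon held 636 and 665 against 514 and 569. Of these parts the 18-base end differed most relative to its control level, though in reads the 99 bases before it differed by more. Raised values were not limited to these parts. Further downstream a bin of 7 bases held 134 and 113 normalised reads in whole cells against 71.0 and 67.3. Per 100 raw reads in the first part of the exon, the 18 bases had 25.2 and 23.3 reads in the cytoplasm after knockdown against 4.93 and 6.60 in the control. In whole cells they had 17.3 and 15.4 against 6.80 and 7.26. These ratios do not depend on the scaling between libraries. The following exon had 69.3 and 62.3 reads per 100 in the cytoplasm against 40.0 and 44.6. A high value was not limited to SRSF4 knockdown. Per 100 reads the cytoplasmic SRSF2 libraries had 43.0 and 19.1, and the SRSF3 libraries 17.1 and 23.2. Counted per 1000 reads of the gene, 11 of the 12 libraries of the other knockdowns lay above both cytoplasmic controls (1.43 to 1.79), and 2 reached the lower SRSF4 library (5.78).

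**Figure D4:**
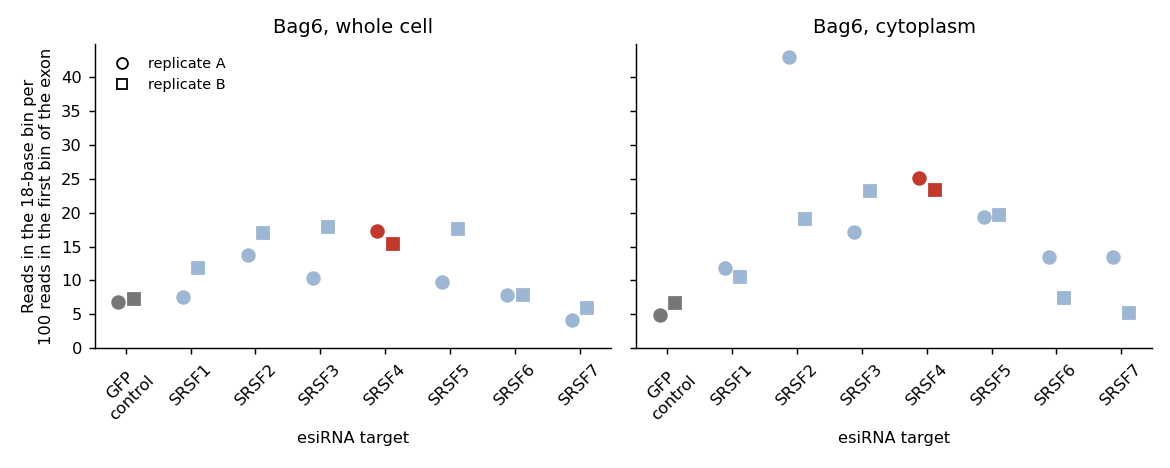
Reads in the 18-base end of a *Bag6* exon per 100 reads in its first part (vertical axis from 0), in every library. Both fractions are shown by targeted gene, with circles for replicate A and squares for replicate B. The SRSF4 libraries are in red (25.2 and 23.3 in the cytoplasm, 17.3 and 15.4 in whole cells). They lie above the control libraries in grey (4.93 and 6.60, 6.80 and 7.26), and the libraries of the other knockdowns are in light blue.

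*Mars* encodes the cytosolic methionyl-tRNA synthetase, which charges the tRNA for methionine. Its called bin, 158 bases at chr10:127311521-127311678 on the minus strand of mm10, is the second of 32 in the direction of transcription and lies in 3 of 6 transcripts. It held 142.7 and 104.7 normalised reads in the cytoplasm after knockdown against 46.5 and 53.2, a relative log2 change of 1.16 with limma adjusted p = 0.0202, or 0.0242 with the letter as a block. In whole cells it held 55.4 and 44.2 against 38.8 and 33.1. The groups lay apart in both fractions. The call depended on the fit: over all 16 cytoplasmic libraries the limma adjusted p was 0.940 without and 0.00422 with the letter as a block, and edgeR gave 1. It was also lost without SRSF4 A (limma adjusted p = 1), GFP A (1) or GFP B (0.659). Per 1000 reads of the gene, the other knockdowns ranged from 2.13 to 5.01, against 4.24 to 5.55 in the SRSF4 and 2.14 to 2.15 in the control libraries. Of the 12 libraries of the other knockdowns 11 lay above both cytoplasmic controls, and 3 reached the lower SRSF4 library.

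In *Chpt1*, whose product makes phosphatidylcholine in its last step, the called bin spans 1874 bases at chr10:88469514-88471387 on the minus strand of mm10 and lies in 1 of 9 transcripts. It held 850.3 and 366.5 normalised reads in the cytoplasm after knockdown against 101.4 and 285.9. The replicates of either group differed widely. The relative log2 change was 2.07 with limma adjusted p = 0.0570, and 0.220 with the letter as a block. Over all 16 cytoplasmic libraries it was 0.00776 without and 0.00422 with the block, and edgeR gave 1. The call was lost without SRSF4 A (limma adjusted p = 1), GFP A (1) or GFP B (0.404). Per 1000 reads of the gene, 10 of the 12 libraries of the other knockdowns lay above both cytoplasmic controls (146 to 281), and 5 reached the lower SRSF4 library (441). In whole cells the bin held 140 and 131 against 94.7 and 98.4.

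Some bins were called with the letter as a block alone. *Inppl1*, which encodes the lipid phosphatase SHIP2, had a bin at 53.5 and 47.3 normalised reads in the cytoplasm against 22.2 and 20.2. A bin of *Atp5b*, which encodes a subunit of the mitochondrial ATP synthase, held 321 and 279 against 95.1 and 179. On the lower side a bin of *Ttc39b* held 226 and 259 against 412 and 358, and one of *Ywhae*, a 14-3-3 protein, 35.7 and 19.4 against 80.3 and 53.2. A bin of *Lpcat3*, a phospholipid acyltransferase, held 22.6 and 27.9 against 41.2 and 66.9. In whole cells a bin of *Ccdc50* held 23.6 and 22.6 against 9.69 and 6.82 and was not called.

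Alternative last exons and tandem 3′ UTRs were measured by the authors with MISO on pooled replicates. The shares therefore carry an estimation interval but no replicate error, and no test between conditions was possible. An event was counted as shifted when the share differed by at least 20 percentage points, the 95% intervals did not overlap and at least 20 informative reads lay in each group. The same GFP reads served all 7 knockdowns.

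Most shifted last exon events had a lower share of the distal exon, and more events met the rule in the cytoplasm than in whole cells, a difference that was not tested. There 25 of 6448 events shifted (0.388%), of which 20 had a lower and 5 a higher share of the distal last exon. In whole cells 6 of 7322 shifted (0.0819%), 4 lower and 2 higher. The median difference over all events was 0 in both fractions. Over all 6448 cytoplasmic events 2598 had a lower and 1942 a higher distal share, and 1908 were equal. Over all whole cell events 3283 were lower, 2071 higher and 1968 equal. None of the 25 cytoplasmic events shifted in whole cells. Of the 20 with a lower distal share, 15 differed in the same direction in whole cells and 5 in the opposite one. Most rested on few reads, with a median of 62.5 informative reads in the control.

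The 4 lower events with at least 100 informative reads in both groups were in *Frmd5*, *Ptpn13*, *Tut7* and *Hspa4*. They were picked out after their values were seen. *Frmd5* went from a distal share of 59% (interval 55 to 63%) in the control to 39% (34 to 45%) on 474 and 339 reads, whereas in whole cells the shares were 78% and 77%. *Tut7*, a terminal uridylyltransferase, went from 62% (57 to 67%) to 42% (35 to 48%), with 42% and 39% in whole cells. *Hspa4*, a cochaperone of HSP70, went from 81% (75 to 86%) to 61% (55 to 67%), with 90% and 84% in whole cells. *Ptpn13*, a tyrosine phosphatase, went from 78% (72 to 83%) to 57% (50 to 65%), with 56% and 48% in whole cells. For *Frmd5* and *Tut7* the whole cell shares thus moved by few points on the same event.

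Larger differences rested on fewer reads. *Rev3l*, the catalytic subunit of DNA polymerase zeta, went from 83% (73 to 92%) to 51% (37 to 64%) in the cytoplasm on 55 and 56 reads, while in whole cells the distal share was 20% and 17% on 1913 and 2083 reads. *Kctd18* went from 37% to 6% on 20 and 20 reads, and *Kdm6a*, a histone demethylase, from 48% to 17% on 49 and 28. Both of 2 events in *Ncoa2*, a coactivator of nuclear receptors, had a lower distal share, and these share their gene. In the opposite direction *Hdac9*, a class IIa histone deacetylase, went from 15% to 48% on 33 and 23 reads, and *Tcf12*, a basic helix-loop-helix factor, from 42% to 65% on 115 and 84. In whole cells *Kansl1l* went from 51% to 30% on 173 and 187 reads, and *Rbms1*, an RNA-binding protein, from 81% to 53% on 95 and 91.

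In tandem 3′ UTRs, where 1 last exon ends at either of 2 poly(A) sites, all 7 shifted events in the cytoplasm had a lower share of the longer form, out of 1065 (0.657%). Over all 1065 events 497 had a lower and 257 a higher share of the longer form, and 311 were equal. In whole cells 1 of 1076 events shifted (0.0929%), to a lower share of the longer form, while 410 were lower and 338 higher over all events.

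*8430427H17Rik* was the one event shifted in both fractions. Its longer form went from 89% (80 to 96%) to 63% (55 to 71%) in the cytoplasm on 281 and 195 informative reads, and from 77% (68 to 87%) to 57% (49 to 66%) in whole cells on 224 and 142. *Synj2bp*, which encodes a protein of the outer mitochondrial membrane, went from 55% (51 to 59%) to 31% (28 to 35%) in the cytoplasm, while its whole cell shares were 88% and 87% on 1630 and 1564 reads. *Gtf2e2*, a subunit of the general transcription factor TFIIE, went from 88% (80 to 97%) to 61% (53 to 69%), with 91% and 81% in whole cells. *Abhd6*, a lipase of monoacylglycerols, went from 85% (79 to 91%) to 64% (57 to 70%), and *Ankrd39* from 89% (80 to 97%) to 67% (59 to 75%). *Zkscan1*, a zinc finger factor, and *Fam107a* rested on fewer reads, with 72% to 45% on 70 and 35 reads and 92% to 58% on 48 and 24. Of the 7 events 6 differed in the same direction in whole cells and 1, *Ankrd39*, was equal there at 98%.

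**Figure D5:**
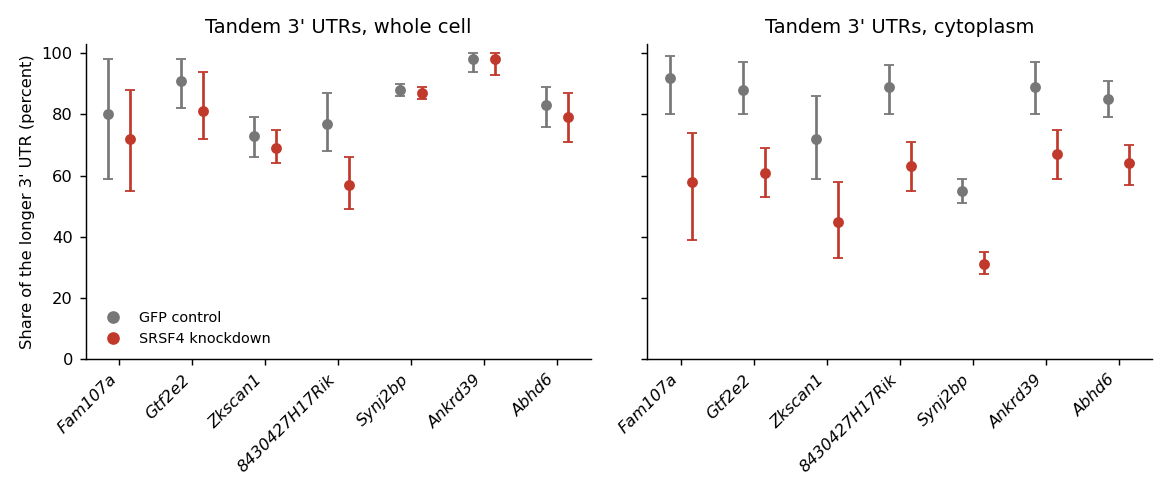
Share of the longer 3′ UTR in percent (vertical axis) for the 7 events shifted in the cytoplasm, in both fractions, with grey for the GFP and red for the SRSF4 pool and error bars for the 95% MISO intervals. In the cytoplasm every red point lies below its grey point by 20 points or more, while in whole cells *Synj2bp* and *Ankrd39* coincide within 1 point.

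The 2 ends of these UTRs were read from NCBIM37, the build of the event annotation, and the last 30 bases before each end are shown for the 5 events with 100 or more reads in both groups, because the choice between these ends is what was measured. Capitals mark AATAAA or ATTAAA, the common signal hexamers bound by the cleavage and polyadenylation machinery, and all 7 events were searched for both. The *Synj2bp* core ends at chr12:82602728 and its extension runs on to chr12:82600138 on the minus strand.
Synj2bp proximal end: gccAATAAAaactcagctatcatccaaaga
Synj2bp distal end: attgtgaattatatgtaattctaatagaca
8430427H17Rik proximal end: tacaagatagtaaagtatttcaccagaata
8430427H17Rik distal end: atctacttAATAAAcactgaacaacaaacc
Gtf2e2 proximal end: atatttatAATAAAatcatttgtaggaaga
Gtf2e2 distal end: cAATAAAattacacgaaatataaatgttaa
Ankrd39 proximal end: agaaAATAAAgcttatatcttgatgttatc
Ankrd39 distal end: atgtatATTAAAatgttctttcatgcaatg
Abhd6 proximal end: aaaaaacaAATAAAaaaatctagccatgaa
Abhd6 distal end: caataatgtgaAATAAAtttactaagtcta

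The proximal ends of 6 of the 7 events held AATAAA, and that of *8430427H17Rik* held neither hexamer. The same search on the transcribed strand covered the 1104 tandem events with at least 20 informative reads in both groups of a fraction. Of these events 37.6% of proximal and 62.2% of distal ends held AATAAA, and 52.1% and 79.6% held either hexamer. At the distal ends of the 7 events 5 held AATAAA, 1 held ATTAAA and that of *Synj2bp* held neither. The extensions spanned from 208 bases in *Gtf2e2* (chr8:34887440-34887647, plus strand) to 3330 bases in *Zkscan1* (chr5:138545721-138549050, plus strand). In *8430427H17Rik* the extension spanned 1160 bases (chr2:153233200-153234359, minus strand), in *Ankrd39* 968 bases (chr1:36595014-36595981, minus strand) and in *Abhd6* 858 bases (chr14:8888421-8889278, plus strand).

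The SR family genes with measured events did not shift. The longer form of *Srsf1* had a share of 17% in the control and 14% after knockdown in the cytoplasm, and 33% and 30% in whole cells. The distal last exon of *Srsf10* had 42% (39 to 44%) and 49% (46 to 52%) in the cytoplasm on 1713 and 1114 reads, and 37% and 38% in whole cells. The largest differences of the family were in *Srsf11* in the cytoplasm, with overlapping intervals. For 1 pair of its last exons the distal share was 78% and 65% on 152 and 144 reads, with 17% and 21% in whole cells. For another pair it was 40% and 27% on 55 and 68 reads, with 50% and 48% in whole cells.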

How the data were processed

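Poly(A)+ RNA-seq libraries of P19 cells were used as deposited. Per the methods and processing notes, the authors trimmed reads with cutadapt, aligned them with TopHat2 (2.0.9 and 2.0.10) and Bowtie2 (2.1.0) to mm9 and mm10, and estimated expression with Cufflinks (2.1.1). The deposited gene tables hold signal values, which are estimated reads scaled between libraries by the authors. The deposited FPKM values are the authors' pooled group estimates and carry no SD. The deposited exon-bin tables hold signal values that are reads divided by a size factor, from which whole reads were recovered for 100% of values within 0.01. The deposited MISO files hold isoform shares as a fraction from 0 to 1 over pooled replicates, and the other columns used from them by the authors' event names are reads and coordinates. Columns with the authors' own fold changes and p-values, and the transcript-level comparisons of fractions, were not used. The exon-bin reads of the 8 libraries summed to 39230650 to 49373732 in whole cells and 42118121 to 57096571 in the cytoplasm.

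Genes were tested within each fraction on log2(value + 1) with limma (3.58.1, lmFit and eBayes with trend), after TMM scaling and edgeR's filterByExpr, over all 16 libraries of the fraction, at a Benjamini-Hochberg adjusted p of 0.05. Fold changes on this scale understate the change of low genes. The cytoplasmic relative to the whole cell level was an interaction over 32 libraries. Exon bins averaging 5 or more normalised reads were tested with limma's diffSplice over the 4 libraries, at an adjusted p of 0.1. The planned count tests on the gene tables could not be used because their values are not whole, so DESeq2 (1.42.0) and edgeR (4.0.16) took exon-bin reads summed per gene instead, chosen after seeing the data. Genes whose bins are pooled with another gene, among them *Gm12992*, were left out of these tests. Scripts were tested on simulated data.

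The letters A and B pair the libraries. The differences between A and B of any 2 groups correlated over genes in all 28 pairs of groups, with Pearson's r of 0.421 to 0.863 for the cytoplasmic libraries (SRSF4 and GFP 0.603) and 0.342 to 0.841 for the whole cell ones (0.586). This pairing comes from the data, since the labels give letters only, and blocked values stand beside results whose call they change.

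The rule for named genes took the SR family, genes and bins past the test (with the block where so said), otherwise up to 5 per direction and fraction with the smallest unadjusted p and a gene mean of at least 100, list members past a test plus the 2 highest in the control, and up to 6 shifted MISO events of each type, fraction and direction by size. The 26 gene lists (377 of 381 symbols matched, with 3 second symbols of a listed gene left out of the counts) and all members were chosen with earlier results of these data known. Other list genes, bins and events named in the text were chosen after their values were seen, mostly for an unadjusted p under 0.05 or as examples of the opposite direction. Sequences came from the NCBIM37 genome, and no mm10 genome was used here. Counting error alone is covered by the MISO intervals. Some genes that the rule names are not reported here.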

Additional observations from a re-analysis of the deposited data

How the results depend on the processing

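With 2 libraries a group and a spread that follows the replicate letter, few calls could be stable. No called result changed sign under an alternative. Of the estimates for named genes and bins, which mostly passed no test, 347 of genes and 36 of bins had the opposite sign under an alternative, against 4884 and 483 that had the same. For *Srsf4* the log2 change ran from -0.96 to -0.65 in whole cells and from -1.55 to -1.28 in the cytoplasm over 18 settings each, and DESeq2 called it in the cytoplasm (adjusted p = 0.0114) while edgeR did not (0.944). Shares from MISO have no replicate check, and events under 100 informative reads are measured loosely. The cause of the changes given here was not tested.

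With the replicate block, which the pairing of letters calls for, genes called went from 0 to 2 in either fraction, stayed at 0 for the relative cytoplasmic level, and bins called in the cytoplasm went from 3 to 22. Fits added after seeing the data that combine the block with another choice gave other counts. With only the libraries compared, 101 genes were called in whole cells (55 higher, 46 lower) and 527 in the cytoplasm (148 higher, 379 lower). In edgeR, where *Gm12992* was not tested, 1 gene was called in either fraction. Without SRSF4 B the blocked fit called 5 genes in whole cells and 558 in the cytoplasm (284 higher, 274 lower). In the cytoplasm it called 0 without SRSF4 A, 2 without GFP A and 4 without GFP B. Over all 16 cytoplasmic libraries it called 11 bins.

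Without the block, leaving out 1 library at a time gave 0 to 1 genes in whole cells (1 without SRSF4 B), 0 to 0 in the cytoplasm and 0 to 0 for the relative level. It gave 0 to 3 bins in whole cells (3 without SRSF4 B, 1 without SRSF4 A or GFP A) and 0 to 23 in the cytoplasm, with 23 without SRSF4 B and 0 without any of the other 3. In the cytoplasm 1 gene was called with the compared libraries alone, 1 without a filter and 4 by DESeq2 (2 higher, 2 lower), and edgeR called 1 bin. Over 11 settings the relative log2 change ran from 1.71 to 2.03 for *Bag6*, 0.98 to 1.34 for *Mars* and 1.22 to 2.72 for *Chpt1*.

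At 10 percentage points, the shifted last exons numbered 37 in whole cells and 76 in the cytoplasm, and the tandem UTRs 6 and 25. Of these 25 tandem events 21 had a lower and 4 a higher share of the longer form. At 100 reads the last exons numbered 1 and 4. Without the condition on intervals they numbered 20 and 71, and the tandem UTRs 3 in whole cells and 10 in the cytoplasm. Of these 10 tandem events 8 had a lower and 2 a higher share of the longer form.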

Other observations

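Genes outside RNA processing and the lists described above gave single values of interest, none past the adjusted threshold over all 16 libraries of a fraction. Among 23 pluripotency genes *Utf1*, a chromatin factor of embryonic stem cells, measured 11835 and 7199 in the cytoplasm after knockdown against 5557 and 6402, and *Dppa4* 252 and 309 against 383 and 363. In whole cells *Trim71*, an RNA-binding ubiquitin ligase of early embryos, measured 2242 and 1607 against 1612 and 1189. Among 20 genes of the integrated stress response *Slc7a11*, the cystine transporter, measured 10851 and 9600.2 in the cytoplasm against 6769.8 and 8084, while *Cth*, an enzyme of cysteine synthesis, measured 2611 and 3118 against 3966 and 4206. The blocked limma fit to the 4 compared libraries called *Cth* lower in the cytoplasm. It also called lower there the stress-induced transcription regulators *Ddit3* (log2 change -1.22, adjusted p = 0.000845) and *Nupr1* (-1.04, 0.00625). In whole cells it called *Ddit3* (-0.52), *Nupr1* (-0.80) and *Ppp1r15a* (-0.46), a phosphatase subunit that ends the response, lower. Over all tested genes this fit called 379 of 16414 lower in the cytoplasm and 46 of 17422 in whole cells. The median log2 change of the stress list over all 16 libraries was -0.003 in the cytoplasm and -0.17 in whole cells. The blocked fit also called genes of other lists higher, among them 2 pluripotency genes in the cytoplasm and 3 in whole cells. Of 16 p53 targets 2 were lower in whole cells at an unadjusted p under 0.05 by limma (1.02% of all genes), *Phlda3* with 62.8 and 86.8 against 118 and 126, and *Fas* with 7.61 and 8.37 against 17.9 and 19.9.

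Further lists covered interferon response, immediate early genes, endoderm, mesoderm, neural and muscle genes, tissue splicing regulators and nuclear long noncoding RNAs. They held 0 genes at an unadjusted p under 0.05 in the limma fit over all 16 libraries of either fraction. The 8 nuclear long noncoding RNAs summed to 44509 and 38302 in whole cells after knockdown against 42709 and 39958, and to 4012 and 3034 in the cytoplasm against 4454 and 4149. The mesoderm gene *T* measured 2227 and 2844 in whole cells against 902 and 2970.1, where the control libraries differed more than the groups.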
